A study of Mus musculus with 3 samples.

Results

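Expression of 8 Notch pathway genes was followed across spatial transcriptomic sections of mouse thymus. The genes were the ligand Dll4, the receptors Notch1 and Notch3, and the targets Hes1, Dtx1, Nrarp, Ptcra and Il2ra. They were chosen by name from the 54838 genes that the files list, and all 8 were detected in each section. The data are from 3 female C57BL/6 mice, 1 thymus section each: 2 KO mice (Trp53-/-, germline loss of the tumour suppressor p53), with the section labelled KO1134 at 17 weeks and the section labelled KO1308 at 21 weeks, and WT1101 (Trp53+/+) at 17 weeks. The study bred homozygous KO and WT mice within a generation and placed its KO mice without an overt tumour in a pre-neoplastic group. Permeabilisation was slightly longer for KO than for WT tissue, so it cannot be told apart from genotype. The study's own section summary gives for KO1308 figures closer to those of the section labelled KO1134, so the ages of the KO sections may be exchanged, while both are KO either way.

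Notch receptors are cut when a ligand on a neighbouring cell pulls on them, and the freed intracellular part enters the nucleus and activates genes together with the DNA-binding protein RBPJ. In the thymus, DLL4 on cortical epithelium acts on NOTCH1 of incoming progenitors, which commits them to the T lineage and carries them through the double-negative stages. Ptcra, the invariant chain of the pre-T cell receptor, and Il2ra, the alpha chain of the interleukin-2 receptor (CD25), are expressed in those stages; Il2ra also marks regulatory T cells. Hes1 is a transcriptional repressor expressed in many cell types, Dtx1 an E3 ubiquitin ligase that regulates Notch, and Nrarp a small ankyrin-repeat protein that restrains the Notch complex. Gain of NOTCH1 activity is a known step in mouse and human T-cell leukaemia and lymphoma.

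All 8 genes were matched by identifier to the GENCODE M21 annotation of GRCm38. The receptor Notch1 lies on the minus strand at chr2:26457903-26516663, and Notch3 on the minus strand at chr17:32120820-32166852. The ligand gene Dll4 lies on the plus strand at chr2:119325784-119335962. Among the targets, Hes1 is at chr16:30064384-30067796 (plus), Dtx1 at chr5:120680202-120711927 (minus), Nrarp at chr2:25180758-25183339 (plus), Ptcra at chr17:46755663-46763712 (minus) and Il2ra at chr2:11642807-11693193 (plus). RefSeq promoter sequence (GRCm38.p6) was matched for 7 of them, all but Hes1, whose promoter was therefore not searched. For Notch1 the RefSeq start lies inside the GENCODE gene. The core letters of the RBPJ motif, TGGGAA or its reverse complement TTCCCA, were searched on both strands in the 250 bases before each start. They were found in 1 of the 7, Ptcra, beside 7094 of all 32851 promoters in the table (21.6%). The windows of Ptcra (chr17:46763713-46763962, minus strand) and Nrarp (chr2:25180508-25180757, plus strand) are shown because these targets were called in opposite directions between medulla and cortex. They are written 5′ to 3′ along the gene with the motif letters in capitals; in Ptcra the matches begin 84 and 32 bases before the start, and Nrarp has none.
Ptcra: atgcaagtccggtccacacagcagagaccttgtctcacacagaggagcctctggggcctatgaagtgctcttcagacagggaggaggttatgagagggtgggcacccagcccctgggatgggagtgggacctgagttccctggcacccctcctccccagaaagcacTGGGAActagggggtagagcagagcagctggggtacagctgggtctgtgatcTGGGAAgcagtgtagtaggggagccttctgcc
Nrarp: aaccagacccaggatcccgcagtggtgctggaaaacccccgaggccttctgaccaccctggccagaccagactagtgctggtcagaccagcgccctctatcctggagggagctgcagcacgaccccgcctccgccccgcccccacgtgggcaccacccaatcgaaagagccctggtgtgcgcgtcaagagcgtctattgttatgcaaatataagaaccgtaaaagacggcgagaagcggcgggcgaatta
A match of these letters is a description of the sequence and does not show binding.

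Unique molecular identifiers (UMIs) were summed in bins 27 µm wide, of which 12013 (KO1134), 16139 (KO1308) and 27104 (WT1101) lay over tissue with at least 300 genes, at a mean of 2591, 1090 and 1497 UMIs per bin. A bin can hold several cells of different types. Each bin was placed in cortex or medulla by the epithelial markers around it, 6 for each and none of them among the 8 Notch genes, and cortex within 100 µm of the outer edge of a lobe was set apart as the rim, where progenitors differentiate. Rim, cortex and medulla held 1272, 4551 and 3269 bins in KO1134, 1788, 6259 and 6737 in KO1308, and 1882, 15318 and 8569 in WT1101. The compartments are not pure, since the cortical epithelial list stood at 1599, 1637 and 1467 CPM (UMIs per 1000000 UMIs of the compartment) in the medulla beside 2414, 2382 and 2035 in the cortex. The medullary list separated them more, at 517, 803 and 331 CPM in the medulla beside 83.6, 267 and 39.4 in the cortex.

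**Figure D1:**
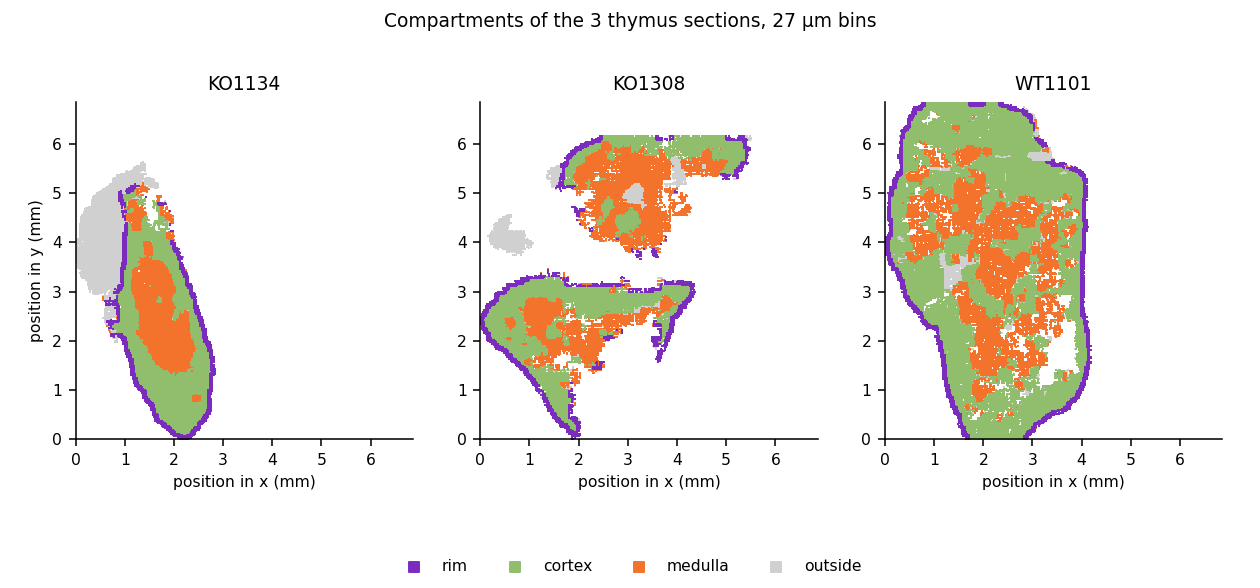
Compartments of the sections labelled KO1134, KO1308 and WT1101, with position in mm on both axes and 1 square per 27 µm bin coloured by rim, cortex, medulla or tissue outside the thymic lobes. The rim follows the outer edge of each lobe, and the 1272, 1788 and 1882 rim bins also run along torn edges.

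The sections differed in the thymocytes they held. In the cortex the 7 double-positive thymocyte genes summed to 271 CPM in KO1134, 2679 in KO1308 and 4822 in WT1101. The 5 early (double-negative) genes, Kit, Hhex, Lyl1, Cpa3 and Erg, summed to 722, 47.4 and 20.3 CPM, and every gene of both lists had UMIs in every compartment of each section. The 3 CD3 chains summed to 618, 970 and 1499 CPM, and the 4 proliferation genes to 983, 1460 and 1621 CPM. KO1134 was thus low in double-positive and CD3 genes and high in early genes, and KO1308 lay between it and WT1101 in every one of these lists. Within a section, fewer cells of a type and less RNA per cell cannot be told apart. As a check of the labels, Trp53 stood at 14.9 CPM in KO1134, 26.4 in KO1308 and 79.6 in WT1101 over the lobes; which part of the gene is deleted is not given in the sources used here, so the remaining UMIs were not assigned to a transcript.

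Levels are CPM with 95% Poisson intervals, which cover counting error only; they compare sections and compartments for 1 gene and are not comparable between genes. Dll4, the ligand, was the lowest in WT1101 in every compartment. In the cortex it stood at 12.5 CPM (10.6 to 14.5) in KO1134, 19.1 (16.2 to 22.4) in KO1308 and 8.61 (7.50 to 9.83) in WT1101. Rim and medulla held 17.9 and 13.8 CPM in KO1134, 18.5 and 15.2 in KO1308, and 10.3 and 7.01 in WT1101. Within each section the intervals of Dll4 in the rim, cortex and medulla came close to or overlapped one another, so the difference between sections was the clearer one.

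The receptors were higher in cortex than medulla in the KO sections and closer to even in WT1101. Notch1 stood at 39.9 CPM in cortex and 24.9 in medulla in KO1134, at 67.7 and 39.0 in KO1308, and at 40.3 and 37.4 in WT1101. Its rim held 44.7, 74.5 and 47.8 CPM in KO1134, KO1308 and WT1101, in that order. Notch3, which follows Notch1 in early thymocytes, stood at 149 CPM in cortex and 78.8 in medulla in KO1134, at 159 and 78.7 in KO1308, and at 101 and 89.2 in WT1101. The medullary level of both receptors was 0.495 to 0.625 of the cortical level in the KO sections, beside 0.929 (0.819 to 1.05) for Notch1 and 0.879 (0.811 to 0.952) for Notch3 in WT1101. The rim of Notch3 held 136, 172 and 104 CPM, close to the cortex of the same section.

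Each target had a pattern of its own. Hes1 stood at 85.8 CPM in the cortex of KO1134, 44.3 in KO1308 and 15.0 in WT1101, and the medulla held 75.9, 89.5 and 25.8 CPM. It was thus higher in both KO sections in every compartment, and higher in medulla than cortex in KO1308 and WT1101 but not in KO1134. The medullary epithelial list, given above, was higher in the medulla of all 3 sections, KO1134 included; its part in the level of Hes1 was not tested.

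Dtx1 was highest in KO1308. It stood there at 74.5 CPM in rim, 57.7 in cortex and 38.0 in medulla, beside 20.2, 14.2 and 22.7 in KO1134 and 11.9, 10.5 and 15.8 in WT1101. The order of compartments also differed, with the medulla lowest in KO1308 and above the cortex in the other sections. Outside the lobes of KO1134, where 1718 of 2921 bins were rich in B cell genes, Dtx1 reached 43.4 CPM (38.8 to 48.4), above each of its lobe compartments.

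Nrarp was rare, with 65, 86 and 143 UMIs in the cortex of KO1134, KO1308 and WT1101. Its cortical level was 4.94, 11.0 and 5.64 CPM, and the medulla held 11.6, 13.9 and 9.68 CPM. The medulla lay above the cortex in all 3 sections, although in KO1308 the ratio of 1.27 had an interval of 0.930 to 1.73. The rim held 7.38, 16.0 and 5.72 CPM on 19, 26 and 25 UMIs in KO1134, KO1308 and WT1101. In KO1308 the rim (10.5 to 23.4) thus stood above the medulla (11.1 to 17.2), with overlapping intervals, and in the other sections below it.

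Ptcra was highest in WT1101, and there in the rim. In WT1101 it stood at 33.2 CPM (145 UMIs) in rim, 15.5 in cortex and 7.24 in medulla. KO1308 held 11.1, 12.2 and 2.78 CPM. KO1134 held 4.66 CPM in rim and 3.80 in cortex, with 12 UMIs in the whole medulla. The rim of WT1101 was 2.14-fold above its cortex (1.75 to 2.59), while the ratio was 0.905 (0.515 to 1.51) in KO1308 and 1.23 (0.595 to 2.34) in KO1134.

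Il2ra parted from Ptcra. It stood at 162 CPM in rim, 174 in cortex and 106 in medulla in KO1134, at 59.7, 64.1 and 63.2 in KO1308, and at 53.7, 28.8 and 29.8 in WT1101. In WT1101 it shared the rim pattern of Ptcra, with a rim 1.87-fold above cortex (1.60 to 2.16). In KO1134 and KO1308 the rim lay at 0.933 (0.839 to 1.04) and 0.931 (0.741 to 1.16) of the cortex. KO1134 thus had the highest Il2ra and the lowest Ptcra of the sections. The regulatory T cell list, of a cell type that also carries Il2ra, summed to 95.7, 146 and 100 CPM in the cortex of KO1134, KO1308 and WT1101, with UMIs of 5 of 5 genes in each. The early list, given above, stood at 722, 47.4 and 20.3 CPM. The part of either list in the level of Il2ra was not tested.

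**Figure D2:**
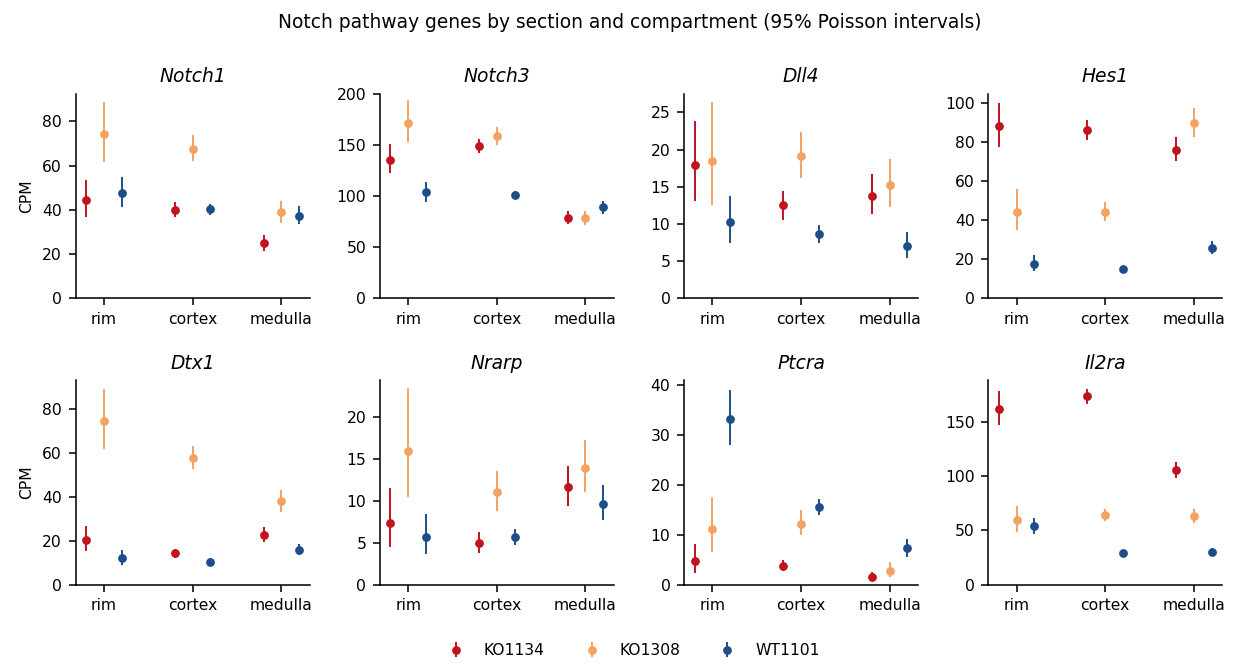
CPM of the Notch pathway genes (y axis, linear from 0) in rim, cortex and medulla (x axis) of KO1134, KO1308 and WT1101; points are section sums and bars are 95% Poisson intervals. Ptcra is highest in the WT rim at 33.2 CPM, Il2ra in the KO1134 cortex at 174 CPM and Dtx1 in the KO1308 rim at 74.5 CPM.

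To ask which genes differed between compartments, the sums of 3 compartments in 3 sections were fitted over all genes with the section as a block (edgeR quasi-likelihood test, Benjamini-Hochberg adjustment over 17899 genes, log2 changes with standard errors). All 8 members passed the filter on low counts. In medulla against cortex, 3 of 8 fell and 1 rose, where 16.1% of all genes were called lower and 17.9% higher. Ptcra fell by 1.58 on the log2 scale (SE 0.26, edgeR adjusted p = 0.00013), Notch3 by 0.77 (SE 0.13, adjusted p = 0.0002) and Notch1 by 0.59 (SE 0.13, adjusted p = 0.0013), and each was lower in the medulla in 3 of 3 sections. Nrarp rose by 0.71 (SE 0.21, adjusted p = 0.015), in 3 of 3 sections. Hes1 (0.47, adjusted p = 0.16), Il2ra (-0.32, adjusted p = 0.35), Dll4 (-0.22, adjusted p = 0.37) and Dtx1 (0.13, adjusted p = 0.66) did not pass. The receptors and Ptcra therefore changed in 1 direction between these compartments and Nrarp in the other. Without KO1134 Nrarp did not pass (0.49, adjusted p = 0.14) and Hes1 did (0.85, adjusted p = 0.00083), and without KO1308 Notch1 did not (-0.44, adjusted p = 0.087). The median change was -0.27 over the members and -0.04 over all genes tested. The double-positive list held 286, 1112 and 3185 CPM in the medulla of KO1134, KO1308 and WT1101 and the early list 314, 60.9 and 29.8, beside the cortical values above; their part in these changes was not tested.

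In rim against cortex 0 of 8 members passed in either direction by edgeR or DESeq2, where 0.894% of all genes were called higher and 0.0223% lower by edgeR. At an unadjusted p under 0.05, 1 member was higher in the rim, Ptcra (0.64, SE 0.25, edgeR adjusted p = 0.31), which was highest in the rim in WT1101 and KO1134. The median change was 0.31 over the members and -0.03 over all genes. The rim difference of Ptcra and Il2ra in WT1101 rests on 1 section, so whether it differs between genotypes was not tested.

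Zones by distance from the lobe edge resolved the WT pattern further. In WT1101 Ptcra stood at 39.5 CPM within 50 µm of the edge, 31.3 from 50 to 100 µm, 18.5 from 100 to 200 µm, 16.3 from 200 to 400 µm and 14.0 beyond. Il2ra stood at 50.6, 54.7, 42.7, 26.9 and 24.4 CPM in the same zones, so that its level from 100 to 200 µm was still nearer that of the edge than that of the interior. Notch1 stood at 54.7 CPM in the outermost zone and 39.7 in the innermost, and Notch3 between 101 and 106 CPM throughout. From the outermost to the innermost zone the receptors thus differed by a smaller factor than Ptcra and Il2ra in this section. In WT1101 the early list held 23.3 CPM in the rim and 20.3 in the cortex, the double-positive list 3828 and 4822, and the proliferation list 1802 and 1621; their part in the rim pattern was not tested.

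In the KO sections the zones were flatter for these targets. Ptcra lay between 8.28 and 14.6 CPM in KO1308 and between 3.07 and 4.91 CPM in KO1134, on 3 to 47 UMIs a zone. Il2ra lay between 58.0 and 68.8 CPM in KO1308 and between 143 and 197 CPM in KO1134, highest there from 100 to 200 µm. In KO1308 Dtx1 stood at 71.4 CPM in the outermost zone and 44.9 in the innermost, and Nrarp at 17.8 and 7.41 CPM on 8 and 17 UMIs.

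**Figure D3:**
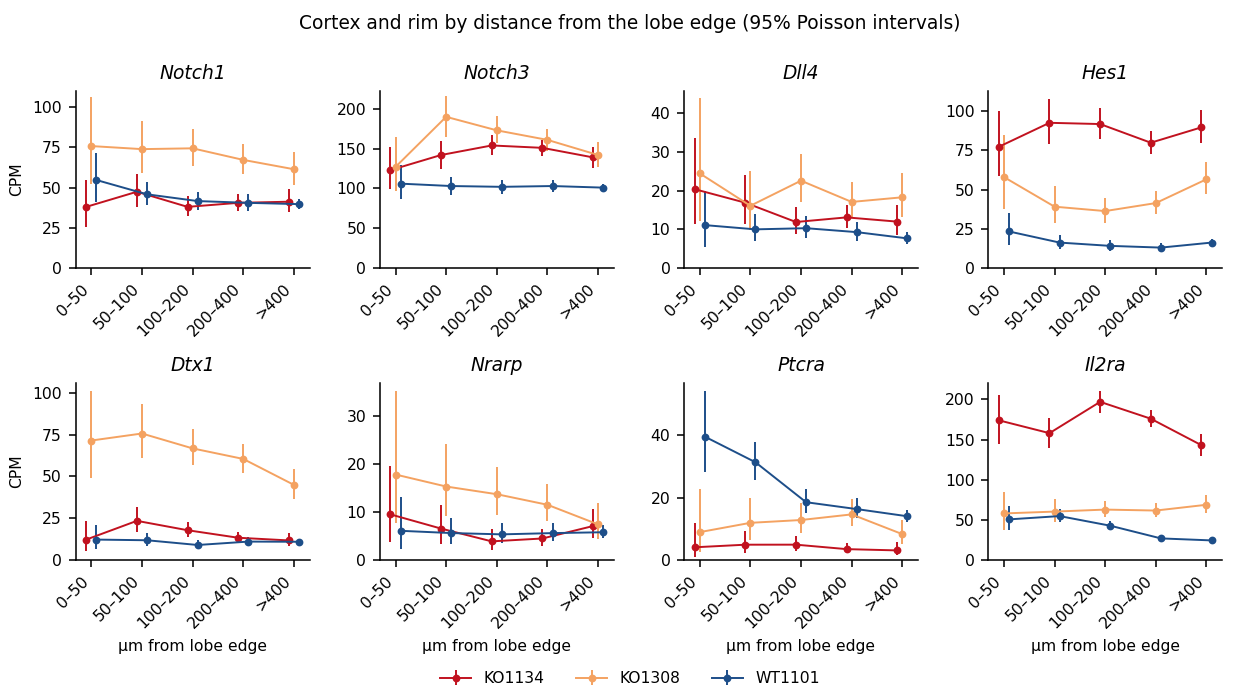
CPM of each gene (y axis, linear from 0) in cortex and rim bins by distance from the lobe edge in µm (x axis), 1 line per section, with 95% Poisson intervals as bars. In WT1101 Ptcra declines from 39.5 to 14.0 CPM and Il2ra from 50.6 to 24.4 CPM, while Notch3 stays between 101 and 106 CPM.

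The study set KO beside WT. With 1 WT section there is no test between genotypes, and the values below are ratios of CPM with 95% exact conditional intervals for counting error; both KO sections are divided by the same WT section. In the cortex of KO1134, 2 of 8 members were at least 1.5-fold above WT and 1 was as far below, where 24.0% of 14533 genes with a mean of at least 3 CPM were above and 21.1% below. In KO1308, 7 of 8 were above and 0 below, where 26.4% of all genes were above and 10.7% below. The median ratio in the cortex was 1.40 over the members and 1.00 over all genes in KO1134, and 2.08 and 1.10 in KO1308. Hes1 and Il2ra were past 1.5-fold in each KO section. The share of all genes past 1.5-fold in both is not given here, so this joint count has no background beside it.

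Among the targets, Hes1 was 5.74-fold (5.10 to 6.46) of WT in the cortex of KO1134 and 2.96-fold (2.56 to 3.44) in KO1308. Il2ra was 6.04-fold (5.56 to 6.58) and 2.22-fold (lower bound 1.98). In the cortex both had the larger ratio in KO1134. In the medulla Il2ra kept this order, at 3.54-fold in KO1134 and 2.12-fold in KO1308. Hes1 did not, at 2.94-fold in KO1134 and 3.47-fold in KO1308. In the cortex Dtx1 had the larger ratio in KO1308, at 1.35-fold (1.11 to 1.63) in KO1134 and 5.48-fold (4.70 to 6.40) in KO1308. Nrarp was at 0.876 of WT (0.643 to 1.18) in KO1134 and at 1.94-fold (1.47 to 2.55) in KO1308. Nrarp and Dtx1, both feedback regulators of Notch, were thus higher in KO1308 than in KO1134. Ptcra was at 0.245 of WT (0.179 to 0.330) in the cortex of KO1134 and at 0.789 (0.624 to 0.988) in KO1308, and in the rim at 0.141 (0.0710 to 0.253) and 0.334 (0.193 to 0.547).

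In the cortex the receptors lay between 0.991 and 1.68 of WT. Notch1 was at 0.991 of WT (0.891 to 1.10) in the cortex of KO1134 and 1.68-fold (1.51 to 1.87) in KO1308. Notch3 was 1.47-fold (1.38 to 1.56) and 1.57-fold (1.46 to 1.68), and Dll4 1.45-fold (1.18 to 1.78) and 2.22-fold (1.79 to 2.75). In the medulla Notch3 lay below WT in both on the CPM scale but not per CD3 UMI, at 0.884 (0.795 to 0.982) and 0.883 (0.787 to 0.990), and Notch1 at 0.667 (0.557 to 0.796) in KO1134 and 1.04 (0.879 to 1.23) in KO1308. On the CPM scale the direction for Notch3 therefore depended on the compartment. Notch1 differed by section instead, at 0.935 in rim (0.738 to 1.18), 0.991 in cortex and 0.667 in medulla in KO1134. In KO1308 it was at 1.56, 1.68 and 1.04. Hes1, Dll4 and Dtx1 were above WT in all 3 compartments of both KO sections, with every interval above 1. Il2ra ratios were above 1 throughout, with an interval that included 1 in the rim of KO1308 (0.867 to 1.41). Ptcra was below WT in all 3 compartments of both, except per CD3 UMI in the cortex of KO1308. Counting per CD3 UMI moved the median ratio of all genes in the cortex from 1.00 to 2.43 in KO1134 and from 1.10 to 1.70 in KO1308. Against that shift Ptcra in the cortex of KO1308 stood at 1.22. In the medulla the CD3 chains summed to 575, 697 and 1328 CPM in KO1134, KO1308 and WT1101. Counting per CD3 UMI thus raised the ratio of every gene to WT there as well. On that scale the medullary ratios were 1.54 for Notch1 in KO1134 and 2.04 and 1.68 for Notch3 in KO1134 and KO1308.

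**Figure D4:**
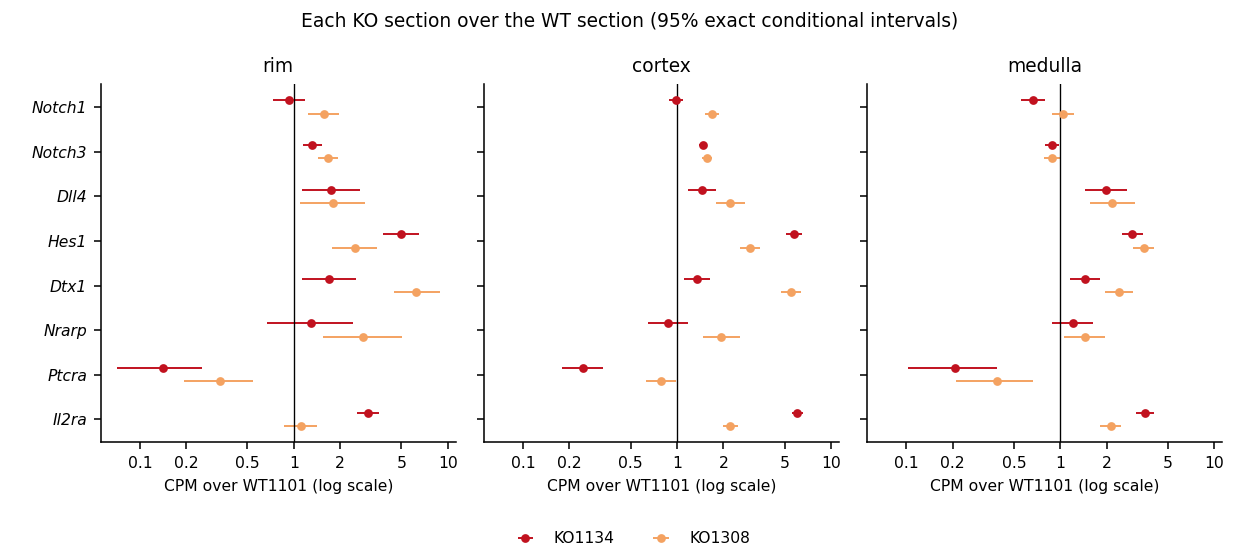
CPM in KO1134 and KO1308 over CPM in WT1101 (x axis, log scale, line at 1) for each gene (y axis) in rim, cortex and medulla; bars are 95% exact conditional intervals for counting error. Hes1 lies to the right of 1 and Ptcra to the left in every compartment (1.22 per CD3 UMI for Ptcra in the cortex of KO1308), and Il2ra reaches 6.04-fold in the cortex of KO1134.

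Whether target levels followed receptor levels was asked first by section and compartment. Per 100 UMIs of Notch1 and Notch3 together, the cortex held 45.5 UMIs of Hes1 in KO1134, 19.6 in KO1308 and 10.6 in WT1101. Il2ra had the same order, at 92.2, 28.3 and 20.3, and Ptcra the reverse, at 2.01, 5.40 and 11.0. Dtx1 stood at 7.53, 25.5 and 7.44, and Nrarp at 2.62, 4.83 and 3.98. The amount of target per receptor UMI thus differed between sections by a factor that was specific to the target. From cortex to medulla, Hes1 per 100 receptor UMIs went from 45.5 to 73.2 in KO1134, 19.6 to 76.1 in KO1308 and 10.6 to 20.4 in WT1101, and Nrarp from 2.62 to 11.2, 4.83 to 11.8 and 3.98 to 7.65. Dtx1 went from 7.53 to 21.9, 25.5 to 32.3 and 7.44 to 12.5, and Il2ra from 92.2 to 102, 28.3 to 53.7 and 20.3 to 23.6, with intervals that overlapped between the compartments for Dtx1 in KO1308 and for Il2ra in KO1134 and WT1101. Ptcra went the other way, from 2.01 to 1.44, 5.40 to 2.36 and 11.0 to 5.72, with overlapping intervals in KO1134. Relative to the receptors, 4 of 5 targets were thus higher in the medulla and Ptcra was lower, apart from the overlapping intervals named. The receptors themselves were lower there, by 0.77 (Notch3) and 0.59 (Notch1) on the log2 scale, beside a median of -0.04 over all genes. An unchanged gene would therefore also rise per receptor UMI. In CPM, Il2ra fell from 174 in cortex to 106 in medulla in KO1134, and Dtx1 from 57.7 to 38.0 in KO1308.

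The question was then asked within cortex and rim, bin by bin. At least 1 Notch1 UMI was found in 577 of 5823 bins in KO1134, 604 of 8047 in KO1308 and 1156 of 17200 in WT1101. For the 5 targets in 3 sections, the ratio of CPM in bins with a Notch1 UMI to bins without had a median of 1.04, and 0 of 15 intervals lay above 1, beside a median over all genes of 0.980 to 0.997 in the 3 sections. Bins with Notch1 were deeper, with a median of 3121 against 2716 UMIs in KO1134, 1412 against 990 in KO1308 and 2132 against 1588 in WT1101, and within 10 strata of UMIs per bin the median ratio was 0.973. The interval for Il2ra was 0.985 to 1.24 in KO1134, 0.782 to 1.36 in KO1308 and 0.852 to 1.33 in WT1101, while that for Nrarp in KO1134 reached from 0.891 to 2.96. In bins of 27 µm an enrichment within these bounds was not detectable at this depth. In bins of 50 µm, 2 of 15 intervals lay above 1, Il2ra in WT1101 at 1.53 (1.33 to 1.74; 1.44 within strata) and Dtx1 in KO1308 at 1.32 (1.11 to 1.56; 1.32 within strata). Below 1 at that width were Hes1 in KO1134, at 0.871 (0.773 to 0.980), and Dtx1 in WT1101, at 0.735 (0.546 to 0.975). Among all genes compared at that width, Il2ra in WT1101 ranked at percentile 99.7 and Dtx1 in KO1308 at 93.1. Hes1 in KO1134 ranked at percentile 15.6 and Dtx1 in WT1101 at 2.90. The share of all genes with an interval past 1 is not given here for either receptor. The intervals of Il2ra in WT1101 and Dtx1 in KO1308 therefore lay above 1 beside Notch1 only at the larger of the 2 bin widths. In bins of 27 µm the ratios were 1.07 for Il2ra in WT1101 and 1.26 (0.963 to 1.63) for Dtx1 in KO1308. For Dtx1 the ratio itself was thus similar at both widths.

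With Notch3, which has more UMIs, 2 of 15 intervals lay above 1 in bins of 27 µm. These were Dtx1 in KO1308, at 1.35 (1.11 to 1.63), and Il2ra in WT1101, at 1.22 (1.05 to 1.42). Within 10 strata of UMIs per bin they were 1.37 and 1.14. They ranked at percentiles 91.8 and 96.0 among all genes compared. In bins of 50 µm both stayed above 1, at 1.40 (1.20 to 1.64) and 1.20 (1.05 to 1.36). Hes1 lay below 1 in KO1134, at 0.831 (0.739 to 0.932), and in KO1308, at 0.711 (0.537 to 0.928), ranking at percentiles 11.4 and 10.4. With 50 µm bins this was lost in KO1134, at 1.03 (0.913 to 1.17; 1.08 within strata), and held in KO1308, at 0.766 (0.636 to 0.921), where Ptcra also lay below 1, at 0.603 (0.406 to 0.881). Of the receptors themselves, Notch3 was 1.28-fold (1.09 to 1.49) in bins with Notch1 in KO1308, beside 1.09 (0.963 to 1.24) in KO1134 and 1.03 (0.902 to 1.16) in WT1101. Bins of the KO cortex and rim with a UMI of Cdkn2a, a cell cycle inhibitor gene, were compared with those without for all 8 genes. The interval excluded 1 for Dtx1 in KO1134, at 0.649 (0.450 to 0.915). In KO1308 it did so for Dtx1, at 1.49 (1.11 to 1.98), for Notch3, at 1.38 (1.15 to 1.65), and for Ptcra, at 0.127 (0.00319 to 0.723) on 1 UMI in 449 bins. The direction for Dtx1 thus differed between the KO sections, and for the other genes the intervals included 1. No value over all genes is given for the Cdkn2a bins, so these calls have no background beside them.

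**Figure D5:**
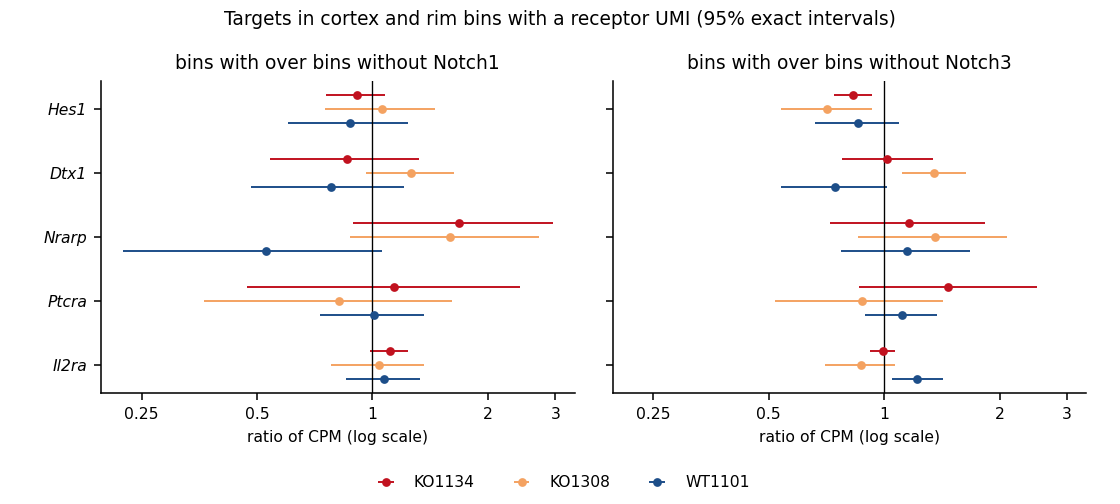
Ratio of CPM of each target in cortex and rim bins with at least 1 UMI of Notch1 (left) or Notch3 (right) to bins without (x axis, log scale, line at 1), in bins of 27 µm, for KO1134, KO1308 and WT1101; bars are 95% exact conditional intervals. For Notch1 all 15 intervals include 1, and for Notch3 those of Dtx1 in KO1308 and Il2ra in WT1101 lie above it.

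Over larger areas, Spearman's rho between targets and receptors was computed over blocks of 5 by 5 bins of the lobes, 367 blocks in KO1134, 618 in KO1308 and 1103 in WT1101. These are descriptions without a p, since blocks of a section share library and depth. Over the 5 targets, both receptors and 3 sections the median rho was 0.035, and the median over all genes was 0.01 to 0.04. This median pools pairs of both signs. The median block held 2, 1 and 1 Notch1 UMIs in KO1134, KO1308 and WT1101, and 7, 2 and 3 Notch3 UMIs. At such counts a low rho does not show that a target and a receptor were unrelated. The pair that stood highest was Il2ra with Notch3 in KO1134, at 0.38, and 0.65 over blocks of 10 by 10 bins. Restricted to cortex and rim it was 0.09 over the smaller and 0.35 over the larger blocks, so much of it lay in the contrast of cortex with medulla. In KO1308 the leading target was Dtx1, with a rho to Notch3 of 0.22 over the lobe and 0.30 in cortex and rim (0.60 over the larger blocks). In WT1101 it was Il2ra with Notch1, at a low 0.08 over the lobe and 0.19 in cortex and rim (0.31 over the larger blocks). Among all genes compared, this pair ranked at percentile 95.7 over the lobe and 100 in cortex and rim at both block sizes. The leading pairs of KO1134 and KO1308 each ranked at percentile 98.0 over the lobe. In KO1134 Il2ra also had a rho of 0.28 to Notch1 over the lobe. In cortex and rim of KO1134 its rho to Notch1 was 0.15 over the smaller and 0.11 over the larger blocks. Which receptor stood higher for Il2ra in KO1134 thus depended on area and block size. Il2ra led in KO1134 and WT1101, and Dtx1 in KO1308. Some targets ran against a receptor. In cortex and rim of KO1308 the rho to Notch1 was -0.33 for Ptcra and -0.29 for Il2ra over the larger blocks. They ranked at percentiles 0.791 and 1.99, and both stood at -0.10 over the smaller blocks. Over the lobe of KO1134, Nrarp had a rho to Notch3 of -0.19 over the smaller and -0.42 over the larger blocks. In cortex and rim there it was 0.03. Il2ra with Notch1 thus had opposite signs in cortex and rim of KO1308 and of the other sections.

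By the same measure over blocks of 10 by 10 bins, the 5 genes most like Notch1 among 12640 were Nsd2, Rad21, Notch3, Cdc7 and Slbp, with a mean rho over the 3 sections of 0.41 for Nsd2 to 0.38 for Slbp. Of these Notch3 had 0.54 in KO1134, 0.49 in KO1308 and 0.12 in WT1101. The genes most like Ptcra were Stmn1, Ccnb2, Hmgn2, Trbc2 and Hmgb2, with a mean rho of 0.47 for Stmn1 to 0.45 for Hmgb2. Apart from Notch3, none of the 8 genes was in either set.

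The other 48 genes of the pathway were taken from a list of receptors, ligands, enzymes, nuclear partners and further targets. In medulla against cortex 10 of the 47 tested rose and 5 fell, beside 17.9% of all genes called higher and 16.1% lower, and their median change was 0.11, beside -0.04 over all genes. These counts are near the shares over all genes and set the list apart in neither direction. Those that rose included the ligands Jag1 (1.89, SE 0.16, edgeR adjusted p = 1.8e-07), Dll1 (1.05, adjusted p = 0.0054) and Dll3 (2.89, adjusted p = 0.00083, rarely detected), the receptor Notch2 (0.53, adjusted p = 0.0093) and the Fringe enzyme Lfng, which alters how receptors read ligands (1.52, adjusted p = 0.038). The others were Poglut1, Psen2, Maml2, Dtx4 and Heyl. Those that fell were Tcf7 (-1.07, adjusted p = 1.8e-05), a T-lineage factor, Ccnd3 (-0.69, adjusted p = 0.00085), Runx1 (-0.61, adjusted p = 0.00016), Tcf12 and Spen. Jag1 stood at 40.3, 60.2 and 20.4 CPM in the medulla of KO1134, KO1308 and WT1101, against 10.2, 16.7 and 4.93 in the cortex. As single genes, Jag1, Dll1 and Notch2 were thus higher in the medulla, and Notch1 and Notch3 in the cortex. In rim against cortex 0 of 47 passed by edgeR and 0 by DESeq2, with 5 by edgeR at an unadjusted p under 0.05.

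Beside WT, 14 of 46 listed genes with enough counts were at least 1.5-fold higher in the cortex of KO1134 and 11 as far lower, and 16 and 3 in KO1308. Over all genes the shares were 24.0% and 21.1% in KO1134 and 26.4% and 10.7% in KO1308, so the list lay near the background. Its median ratios were 1.00 and 1.08, beside 1.00 and 1.10 over all genes. Those past 1.5-fold in each KO section were higher for Notch4, Jag1, Lfng, Mfng, Numbl, Dtx4, Hey1, Myc and Il7r, and lower for Itch and Trib2. For this joint list too, the share over all genes is not given. Myc, a target of NOTCH1 in T-cell leukaemia, was 2.40-fold (2.20 to 2.62) and 4.07-fold (3.73 to 4.44) of WT in KO1134 and KO1308, and Lfng 3.44-fold (2.85 to 4.17) and 7.02-fold (5.84 to 8.45). Il7r was 4.89-fold and 1.67-fold, an order it shared with Il2ra. Trib2 was at 0.104 (0.0903 to 0.119) and 0.476 (0.437 to 0.519).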

How the data were processed

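Thymus sections of 2 KO mice and 1 WT mouse were profiled on BMKMANU S1000 slides. The authors used BSTMatrix 2.0 and STAR 2.5.1b (GRCm38 per the labels) and deposited UMI counts per gene and spot, with spot positions, and 1 section per mouse. Total counts per section were 31237062 (KO1134), 21089885 (KO1308) and 41581477 (WT1101). Counts were summed here into 27 µm bins. Bins with at least 300 genes and at most 30% mitochondrial UMIs in connected groups of at least 200 were kept, and areas the authors removed for folds were not removed. Cortex needed a cortical marker share, over 7 by 7 bins, of at least 0.5 of the section mean and at least the medullary share; medulla needed a higher medullary share of at least 1. The epithelial markers stayed out of all tests.

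Compartments were tested with edgeR 4.0.16 (TMM, filterByExpr, quasi-likelihood, section as block) on 9 sums under R 4.3.3; p-values measure the spread between 3 sections. Genotypes were described by ratios with exact conditional intervals (scipy 1.17.1). UMIs correct for PCR copies, and intervals cover counting error only. DESeq2 1.42.0, RLE, other filters, bin widths, denominators and leaving out each section were alternatives. The scripts were tested on simulated data. The members and lists were chosen with earlier results of these data known. All 8 members are named, other pathway genes where past the test or 1.5-fold in both KO sections, and the 5 nearest genes of Notch1 and Ptcra. Spot names shared by sections (244006 to 903622 per pair) are positions on the slide design.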

Additional observations from a re-analysis of the deposited data

Results flagged for a closer look

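The rim over cortex ratio of Il2ra lay above 1 in WT1101 and just below 1 in both KO sections, and a fall was not shown in KO. The rim stood at 1.87-fold of the cortex in WT1101 (1.60 to 2.16), at 0.933 in KO1134 (0.839 to 1.04) and at 0.931 in KO1308 (0.741 to 1.16). From cortex to medulla Il2ra stood at 1.04-fold in WT1101 (0.897 to 1.19), 0.607 in KO1134 (0.560 to 0.657) and 0.986 in KO1308 (0.861 to 1.13), so that the interval excluded 1 in KO1134 alone of the 3 sections. With 1 WT section neither difference was tested.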

How the results depend on the processing

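The members called in medulla against cortex numbered 4 with DESeq2, RLE size factors, at least 500 genes per bin, stricter compartments, no B-rich bins and 50 µm bins, and 6 with no filter on low counts, where Hes1 and Il2ra also passed; without 1 section they numbered 3 to 4. In rim against cortex 0 members passed under each alternative. All genes called in the rim numbered 164, against 1034 with no filter (256 higher and 778 lower), 106 with at least 500 genes, 91 with stricter compartments and 85 to 150 without 1 section; in the medulla 6098, and 3408 to 5362 without 1 section. Changes of members that did not pass turned sign for Notch3 in the rim (-0.09 with no filter, -0.14 with a rim of 50 µm, -0.02 to 0.15 without 1 section), Il2ra in the rim (-0.05 to 0.56 without 1 section, lowest without WT1101) and Dtx1 in the medulla (-0.11 to 0.57 without 1 section, lowest without KO1134). Members past 1.5-fold in the cortex of each KO section numbered 2, and 3 with 50 µm bins (Dll4 added), 4 without ribosomal, mitochondrial and immunoglobulin genes in the denominator (Notch3 and Dll4 added), 7 per CD3 UMI and 4 over all tissue (Hes1, Dtx1 and Il2ra higher, Ptcra lower). Per CD3 UMI the ratios to WT crossed 1 for Notch1 in the medulla of KO1134 (1.54), Notch3 in the medulla of KO1134 (2.04) and KO1308 (1.68), and Ptcra in the cortex of KO1308 (1.22). No share over all genes is given for the joint counts of members past 1.5-fold in both KO sections. Of 304 ratios recomputed, 243 stayed within their main interval. Target intervals above 1 numbered 0 for bins with Notch1, 2 with 50 µm bins (Il2ra in WT1101 and Dtx1 in KO1308) and 2 with Notch3, and with 50 µm bins Hes1 beside Notch3 in KO1134 went from 0.831 to 1.03. The share of all genes with such intervals is not given here. The cause of the shifts between settings was not tested. Genotypes were not compared in a paired analysis, since there is 1 WT section, while the compartment tests kept the section as a block.

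Genotype rests on 1 WT section, depth, permeabilisation and cell content differ between sections, and Nrarp and Ptcra rest on few UMIs in the KO sections. Compartments were drawn from markers smoothed over neighbouring bins, so their differences are diluted.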
